A study of Mus musculus with 18 samples.

Results

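Integrins, semaphorins, plexins and a few other surface proteins through which a T cell holds on to its surroundings were followed in RNA-seq of mouse DNT cells, the double negative T cells of the series title, given ATPgs, adenosine, or adenosine on top of an inhibitor of the adenosine receptor A2aR. The genes were taken by symbol. They are the protein-coding genes whose symbols start with Itga, Itgb, Sema or Plxn, together with Selplg, Icam2, Cd44, Nrp1, Cd47 and Cd96. That gave 66 of the 52506 genes listed in all 3 count tables. There were 18 integrin alpha chains, 9 integrin beta chains, 20 semaphorins, 9 plexins, the 6 named genes, and 4 genes that share the Itgb prefix without being beta chains of the classical receptors (Itgb1bp1, Itgb1bp2, Itgb3bp and Itgbl1). All 66 were listed in every table.

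An integrin is a pair of an alpha and a beta chain that binds the extracellular matrix or another cell, and in T cells its grip is switched on from inside by the T cell receptor and by chemokine receptors. Itgal pairs with Itgb2 to form LFA-1, whose ligands include Icam1 and Icam2, Itga4 pairs with Itgb7 or Itgb1, and Itgav pairs with several beta chains, Itgb3 and Itgb5 among them. Semaphorins are secreted or membrane-bound guidance proteins, and plexins are their receptors, with neuropilins such as Nrp1 as partners for the secreted class. Adenosine acts on T cells in large part through A2aR, which raises cAMP. ATPgs, per the series' design text, is an ATP analogue that is not hydrolysed.

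The cells came from spleen and lymph node of wild type mice, were converted from CD4+ T cells, and were all stimulated with anti-CD3/CD28 antibody. Set 1 compared WTATPgs, which had 400 µM ATPgs for 6 h, with WT, which had none. Set 2 compared ADO, which had 400 µM adenosine for 6 h, with DNT, which had none. In set 3 both groups held 250 nM of the A2aR inhibitor, and RA, which also had 400 µM adenosine for 6 h, was compared with R. Each group had 3 libraries. Nothing in the labels says that these came from separate cultures or animals, so p-values measure only the spread between libraries, which may be technical.

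The libraries held 20156082 to 24331577 counts. The 9 T cell markers summed to 2579 to 3930.4 CPM in every library, and Cd4, Cd8a and Cd8b1 together to 6.39 to 26.7 CPM. CPM are counts relative to the library's total over genes kept by the low-count filter, scaled with TMM factors within a set. The share of counts in ribosomal protein genes was 4.84% to 5.52% in sets 1 and 2 and 10.6% to 16.3% in set 3. In set 1 the mast cell and basophil markers Cpa3, Fcer1a, Ms4a2 and Mcpt8 summed to 441, 434 and 427 CPM in WT and to 754, 742 and 169 CPM in WTATPgs. The 12 myeloid markers summed to 47.5, 44.7 and 42.6 CPM in WT and to 198, 206 and 47.7 CPM in WTATPgs, so WTATPgs-3 stood apart from the other two. The mast cell and basophil sum was 3.75 to 4.52 CPM in set 2 and 17.1 to 42.1 CPM in set 3. The 3 R libraries differed more among themselves than the replicates of any other group. The typical spread of a gene between replicates, as edgeR's common coefficient of variation, was 10.6% (set 1), 2.74% (set 2) and 19.6% (set 3).

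At 6 h, 35 of the 66 genes reached a mean of 5 CPM in at least 1 group. These were 11 of the 18 alpha chains (Itga1, Itga2, Itga2b, Itga3, Itga4, Itga5, Itga6, Itgae, Itgal, Itgav and Itgax), 5 of the 9 beta chains (Itgb1, Itgb2, Itgb3, Itgb5 and Itgb7), all 6 named genes, 4 of the 9 plexins (Plxna1, Plxnb2, Plxnc1 and Plxnd1), 8 of the 20 semaphorins (Sema3d, Sema4a, Sema4b, Sema4c, Sema4d, Sema4f, Sema6d and Sema7a) and Itgb1bp1. Not all 35 reached 5 CPM in every set. Sema3d had group means of 0.853 to 1.04 CPM in sets 1 and 2 and 7.07 to 7.21 CPM in set 3. Itgae was at 27.9 and 33.1 CPM in the groups of set 1 and at 4.34 to 5.4 CPM in the other sets. To compare genes with each other, CPM was divided by the length of the merged exons in kb. On that scale, as the mean of WT and DNT, the semaphorin Sema7a, which is anchored in the membrane and binds beta 1 integrins, was highest at 163 CPM per kb. Itgb2 followed at 158, the hyaluronan receptor Cd44 at 127, Itgal at 119.8, Itgb1 at 93.4, Sema4d at 62.2, Itgav at 59.8 and Itgb7 at 58.1 CPM per kb. These ranks mix sets 1 and 2, each scaled on its own. Sema7a led in WT, at 207 CPM per kb, but in DNT, at 119, it lay below Itgb2 (156) and Itgal (123). Itgb7 was at 79.1 CPM per kb in WT and 37.1 in DNT. The most abundant plexin was Plxnd1 at 20.3 CPM per kb, and Nrp1 was at 3.98 CPM per kb (6.76 in WT and 1.2 in DNT). Among the alpha chains, the LFA-1 chain Itgal and the alpha v chain Itgav stood well above Itga3, the next, at 9.24 CPM per kb.

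**Figure D1:**
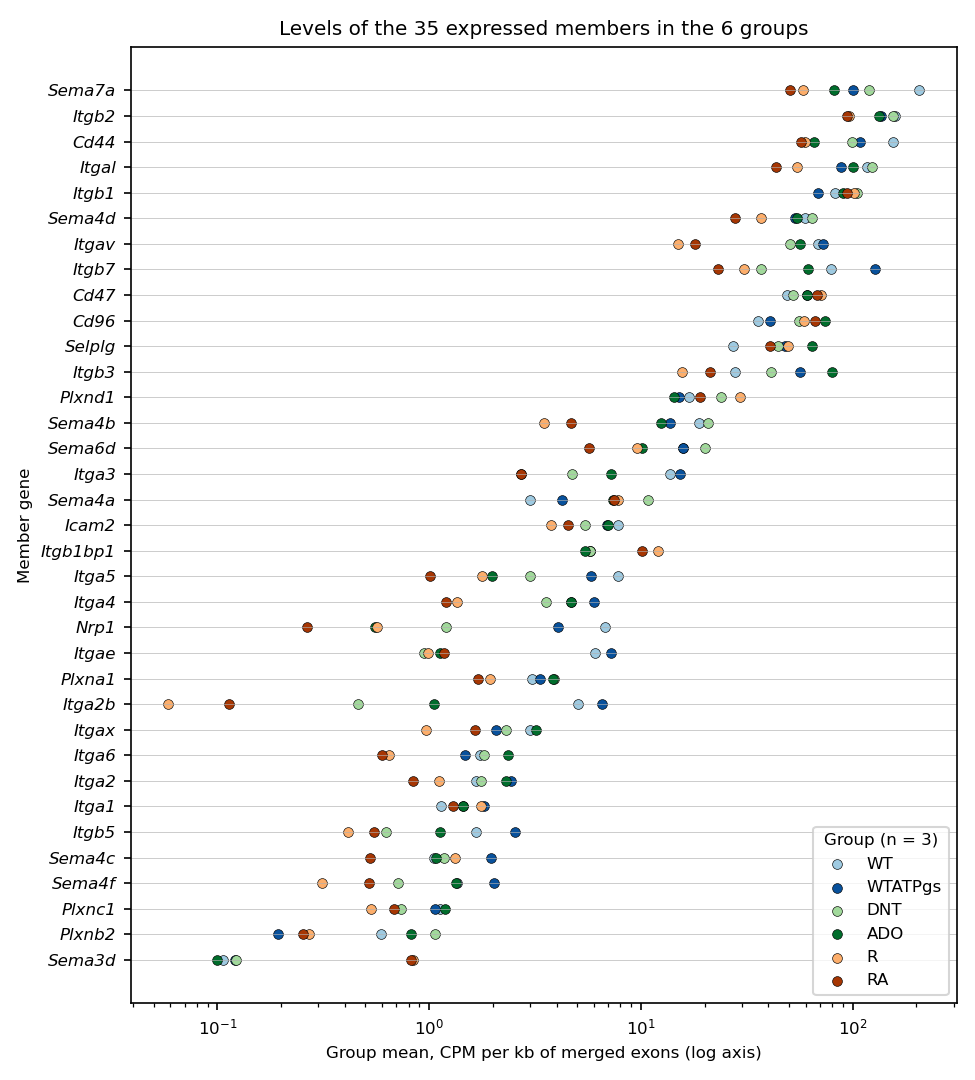
Mean CPM per kb of merged exons of the 35 expressed genes (rows) on a log axis, with 1 point for each of the 6 groups (n = 3 libraries). Sema7a, Itgb2, Cd44, Itgal and Itgb1 were highest in the mean of WT and DNT. Each set was scaled on its own, so levels compare best within a set.

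A pair of the genes on which the results turn is shown with the stretch around their start, from RefSeq's GRCm38.p6 table, which held such a window of 250 bases before and 50 after the start for 50 of the 66 genes (64 windows). Sema7a had the highest level in the mean of WT and DNT, though not in DNT alone, and fell with both ligands. Itgb7 rose with both. The first window is chr9:57939862-57940161 on the plus strand and the second chr15:102231886-102232185 on the minus strand. Capitals mark a TGACG, the half-site of the cAMP response element.
Sema7a: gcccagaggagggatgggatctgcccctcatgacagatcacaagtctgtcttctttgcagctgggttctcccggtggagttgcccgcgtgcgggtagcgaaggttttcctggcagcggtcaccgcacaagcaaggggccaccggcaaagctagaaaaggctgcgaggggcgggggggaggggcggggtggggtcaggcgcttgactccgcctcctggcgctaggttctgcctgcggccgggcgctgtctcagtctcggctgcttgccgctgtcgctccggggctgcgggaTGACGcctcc
Itgb7: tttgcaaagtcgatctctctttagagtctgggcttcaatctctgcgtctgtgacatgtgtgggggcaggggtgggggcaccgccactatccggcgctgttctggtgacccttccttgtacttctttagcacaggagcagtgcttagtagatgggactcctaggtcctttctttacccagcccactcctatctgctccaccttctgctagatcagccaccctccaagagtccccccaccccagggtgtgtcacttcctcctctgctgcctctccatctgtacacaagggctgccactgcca
Motifs were searched on both strands. The half-site TGACG lay in 8 of the 64 windows (12.5%), against 20.8% of the 32851 windows of all genes. It is part of the full element TGACGTCA, which lay in 0 of the 64 and in 1.79% of all windows. The AP-1 motif TGANTCA lay in 6 of the 64 (9.38%) and in 7.81% of all. Among the expressed genes, Cd47, Itgb1, Sema3d and Sema7a held a half-site and Itga3, Itgax, Sema4c and Sema4d an AP-1 motif. These letters are a description of the windows and show no binding.

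ATPgs and adenosine each changed a large part of the genes, in both directions. With ATPgs, 17 of the 54 genes tested rose and 11 fell (51.9% together), against 37.1% of all genes tested in set 1. Those shares for all genes were 17.7% higher and 19.4% lower. With adenosine, 19 of 49 rose and 15 fell (69.4%), where 50.2% of all genes tested passed, 25.5% higher and 24.6% lower. Under the inhibitor 0 of 42 rose and 1 fell (2.38%, against 1.14% of all genes, 0.287% higher and 0.855% lower). The median log2 fold change over the genes tested was 0.14 with ATPgs, −0.01 with adenosine and −0.11 under the inhibitor, and that of all genes tested was 0.0, 0.0 and −0.04. Gene positions are those of GENCODE M21 on GRCm38. A gene counts as risen or fallen here where its adjusted p from edgeR's quasi-likelihood test, corrected over all genes tested, was under 0.05. The 0 rests on a set with few calls. There, 3 of the 42 were higher and 9 lower at an unadjusted p under 0.05. The share of all genes at that looser threshold was not worked out, so these counts have no background to be read against. DESeq2 called 1 higher and 4 lower (181 and 352 of all 12873 genes tested), and limma-voom called 0 and 1 (39 and 112). In bulk RNA, a change in the number of cells of a type and a change in RNA per cell cannot be told apart.

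**Figure D2:**
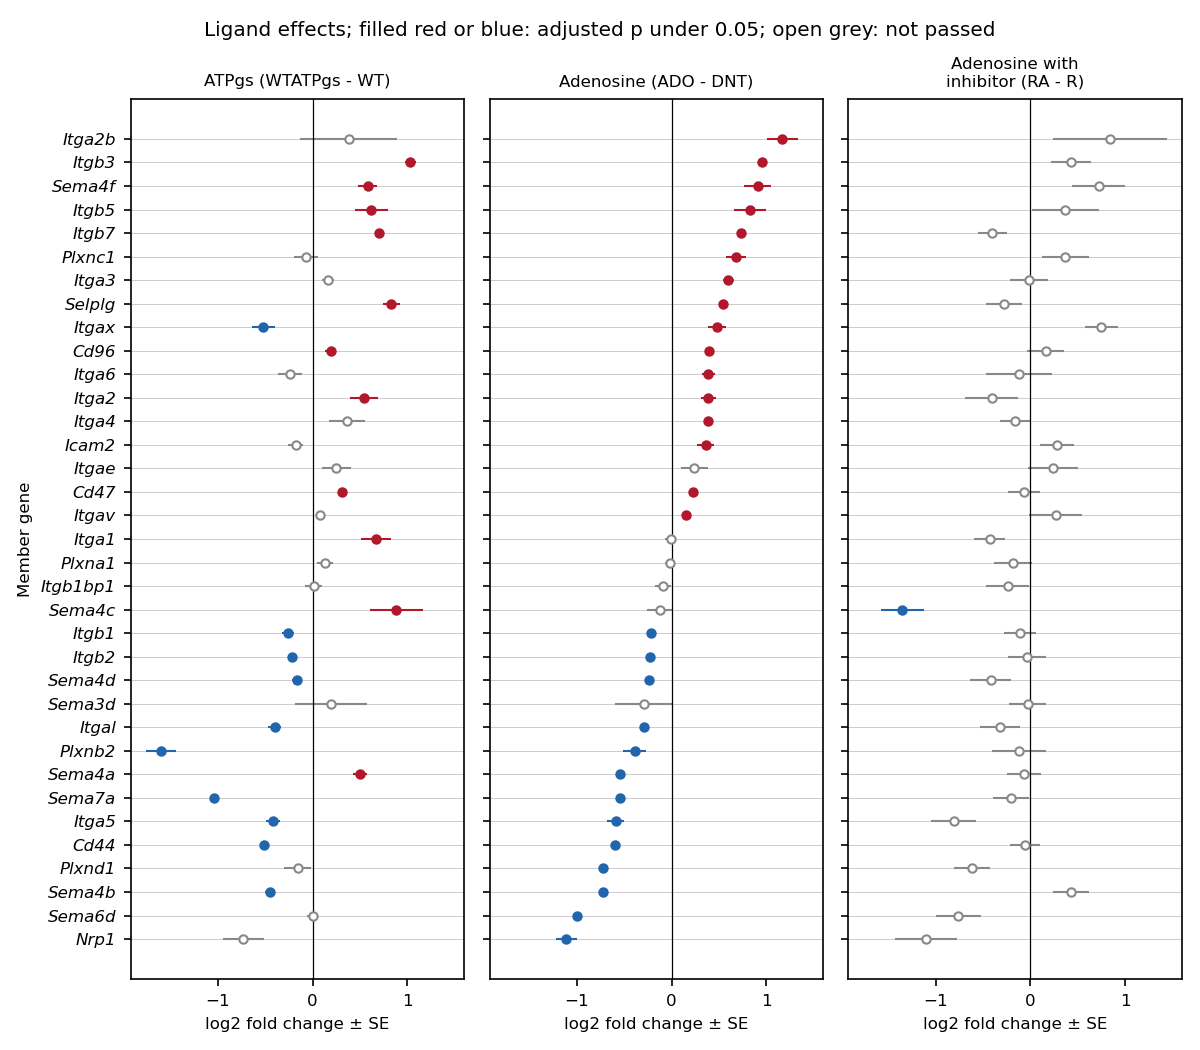
Log2 fold change (treated minus control) of each expressed gene with ATPgs, with adenosine and with adenosine under the A2aR inhibitor, with bars of 1 SE from edgeR. Filled red or blue points had an adjusted p under 0.05, and open grey points did not. Itgb3, Itgb7 and Selplg lay right of 0 with ATPgs and with adenosine, Cd44, Sema7a and Sema4b left of it, and under the inhibitor Sema4c alone passed.

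Among the beta chains, Itgb3, Itgb5, Itgb7 and the low Itgb8 rose with both ligands, and the most abundant, Itgb2 and Itgb1, fell with both. With ATPgs 5 of 8 tested beta chains rose (62.5%, against 17.7% of all genes) and 2 fell (25.0%, against 19.4%). The other riser there, Itgb2l, was near the floor, at 0.877, 0.691 and 0.398 CPM in WT and 3.08, 3.01 and 0.732 CPM in WTATPgs. WTATPgs-3 lay within its WT values (adjusted p = 0.0484). With adenosine 4 of 7 rose (57.1%, against 25.5% of all genes) and 2 fell (28.6%, against 24.6%). Itgb3 (chr11:104608000-104670476), the beta chain of the vitronectin receptor and of the platelet fibrinogen receptor, was at 161, 162 and 168 CPM in WT and 347, 351 and 305 CPM in WTATPgs. Every treated library lay far above every control (log2 fold change 1.03 ± 0.06, adjusted p = 6.41e-06). In set 2 it was at 238, 239 and 256 CPM in DNT and 485, 476 and 462 CPM in ADO, again with no overlap (log2 fold change 0.96 ± 0.02, adjusted p = 2.11e-31). Under the inhibitor Itgb3 was at 77.7, 125 and 76.0 CPM in R and 122, 121 and 133 CPM in RA, where R-2 lay within the RA values (log2 fold change 0.43 ± 0.21, adjusted p = 0.457). It passed there without R-2 (0.69, adjusted p = 0.0431) and with all 18 libraries in a single fit (0.46, adjusted p = 0.0275). The single fit pools the wide spread of set 3 with the smaller spreads of sets 1 and 2. Under the inhibitor it called 885 of all genes higher and 893 lower, against 37 and 110 in the fit used. That limit holds wherever the single fit is given for set 3.

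Itgb7 (chr15:102215995-102231944), the beta chain of the gut-homing integrin, was at 222, 213 and 222 CPM in WT and 348, 350.1 and 366 CPM in WTATPgs (log2 fold change 0.70 ± 0.04, adjusted p = 5.50e-06). In set 2 its values were 104, 101 and 104 CPM in DNT and 169, 175 and 167 CPM in ADO (log2 fold change 0.73 ± 0.03, adjusted p = 2.34e-26). Both rises were without overlap and of like size. Under the inhibitor the order was the other way round, with 83.4, 91.5 and 79.2 CPM in R and 69.0, 62.4 and 61.1 CPM in RA, but the change did not pass (log2 fold change −0.40 ± 0.15, adjusted p = 0.292) except without R-3 (−0.45, adjusted p = 0.0242) and with all 18 libraries in a single fit (−0.37, adjusted p = 0.00233). The difference between the adenosine effect with and without the inhibitor did pass for Itgb7, at −1.15 ± 0.12 on the log2 scale (adjusted p = 0.000203). The test of the difference used the 12 libraries of sets 2 and 3. It pools the wide spread of set 3 with the small spread of set 2. Its SE of 0.12 was thus below the 0.15 of RA against R alone, so its p-value overstates the certainty. This limit holds for every difference by inhibitor given here.

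Itgb5 (chr16:33829665-33949338), a beta chain that pairs with Itgav, was low, at 5.81, 6.12 and 5.71 CPM in WT and 6.97, 9.03 and 11.1 CPM in WTATPgs, and rose (log2 fold change 0.62 ± 0.17, adjusted p = 0.0195). It lost the call without any one WT library (adjusted p 0.0609 to 0.0799). With adenosine it was at 2.17, 2.13 and 2.37 CPM in DNT and 3.72, 4.39 and 3.79 CPM in ADO (log2 fold change 0.83 ± 0.17, adjusted p = 6.81e-05). The falls of the abundant chains were smaller. Itgb2 (chr10:77530252-77565708), the common beta chain of the leukocyte integrins, was at 495, 486 and 477 CPM in WT and 409, 422 and 424 CPM in WTATPgs and at 479, 481 and 472 CPM in DNT and 409, 407 and 401 CPM in ADO. All treated libraries lay below their controls in both sets (−0.22 ± 0.03, adjusted p = 0.00127, and −0.23 ± 0.02, adjusted p = 4.24e-14). Itgb1 (chr8:128685654-128733200), the partner of most matrix-binding alpha chains, was at 334, 334 and 338 CPM in WT and 292, 294 and 252 CPM in WTATPgs (log2 fold change −0.26 ± 0.06, adjusted p = 0.00771). In set 2 it was at 427, 424 and 429.7 CPM in DNT and 381, 352 and 366 CPM in ADO (log2 fold change −0.22 ± 0.02, adjusted p = 1.09e-11). In set 3 Itgb2 was at 280.4, 368 and 232 CPM in R and 284, 279 and 296 CPM in RA (log2 fold change −0.04 ± 0.20, adjusted p = 0.97). Itgb1 there was at 409.5, 355 and 482 CPM in R and 375, 383 and 397 CPM in RA (log2 fold change −0.11 ± 0.17, adjusted p = 0.886), so that neither passed and both groups overlapped. Itgb5 was at 1.76, 1.79 and 0.886 CPM in R and 2.06, 1.27 and 2.50 CPM in RA (log2 fold change 0.37 ± 0.35, adjusted p = 0.775).

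**Figure D3:**
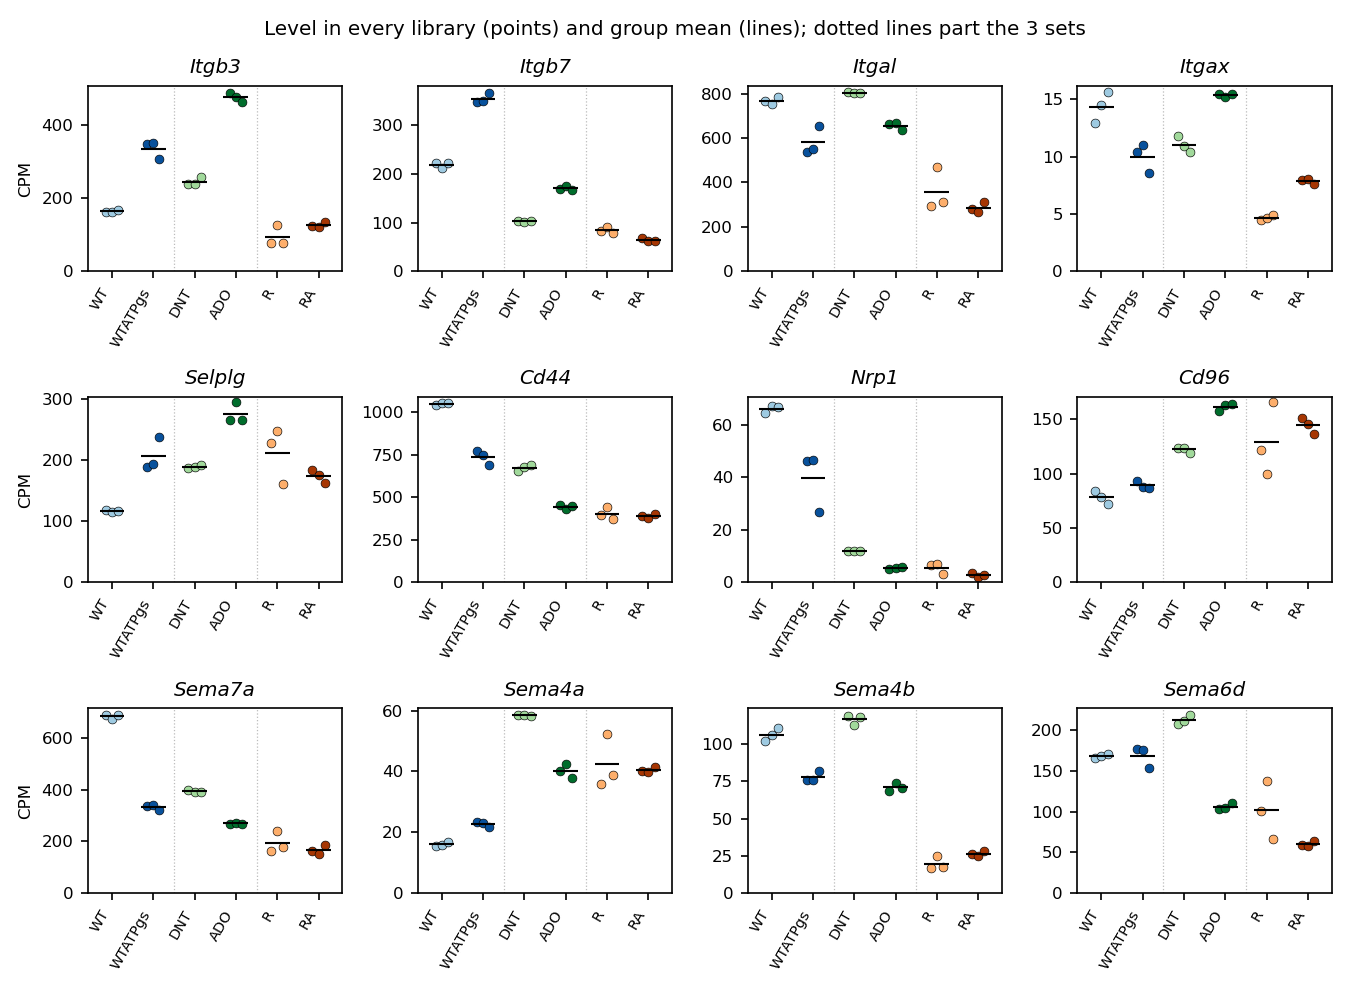
CPM of each library (points, n = 3 per group) and group mean (lines) for 12 genes in the 6 groups, each on its own linear axis from 0, with dotted lines between the sets. Itgb3 and Itgb7 were higher and Cd44 and Sema7a lower in WTATPgs than in WT and in ADO than in DNT, without overlap, and in Cd96, Sema4a and Sema6d the R libraries spread more widely than those of any other group.

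Among the alpha chains, 3 of 16 tested rose and 3 fell with ATPgs (18.8% each), close to the 17.7% and 19.4% of all genes. With adenosine 7 of 14 rose (50%, against 25.5% of all genes) and 2 fell (14.3%, against 24.6%). Itgal (chr7:127296260-127335138), the LFA-1 alpha chain, fell with its partner Itgb2 in both comparisons. It was at 767, 753 and 786 CPM in WT and 539, 552 and 654 CPM in WTATPgs, where WTATPgs-3 lay nearest the controls (log2 fold change −0.40 ± 0.07, adjusted p = 0.00395). The set 2 values of Itgal were 808, 802 and 804 CPM in DNT and 664, 668 and 638 CPM in ADO (log2 fold change −0.29 ± 0.02, adjusted p = 1.13e-18). Itgal under the inhibitor was at 295, 469.6 and 311 CPM in R and 282, 266 and 311 CPM in RA (log2 fold change −0.32 ± 0.21, adjusted p = 0.619). Itga3, Itga5 and Itga6 were named after their values were seen. The fibronectin receptor chain Itga5 fell, by 0.42 ± 0.07 with ATPgs (adjusted p = 0.00162) and by 0.59 ± 0.09 with adenosine (adjusted p = 1.74e-07).

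Itgav (chr2:83724397-83806916), the vitronectin receptor alpha chain, was at 717, 748 and 748 CPM in WT and 812, 806 and 715 CPM in WTATPgs and did not pass with ATPgs (log2 fold change 0.08 ± 0.05, adjusted p = 0.276). Its set 2 values were 554, 542 and 544 CPM in DNT and 614, 611 and 596 CPM in ADO, a small rise without overlap (log2 fold change 0.15 ± 0.02, adjusted p = 4.09e-09). In set 3 it was at 159.7, 226 and 95.4 CPM in R and 178, 181 and 219.8 CPM in RA, with R libraries spread over both sides of RA (log2 fold change 0.27 ± 0.28, adjusted p = 0.797). A non-coding gene on the other strand overlaps 5.9% of the exons of Itgav, and whether strand was used in counting is not given in the sources used here. Itga4 (chr2:79255426-79333123), which pairs with Itgb7 and Itgb1, rose with adenosine, from 50.8, 48.9 and 49.9 to 66.5, 62.2 and 66.9 CPM (log2 fold change 0.39 ± 0.04, adjusted p = 1.22e-10). Cerkl overlaps 8.0% of its exons on the other strand. Under the inhibitor Itga4 was at 20, 18.8 and 17.7 CPM in R and 16.1, 18.4 and 16.1 CPM in RA (log2 fold change −0.16 ± 0.16, adjusted p = 0.787), and the difference between the adenosine effects with and without the inhibitor was −0.56 ± 0.13 (adjusted p = 0.0248). That difference no longer passed when any one of 8 libraries was left out, all 3 of DNT, all 3 of ADO, RA-1 and RA-3 (adjusted p 0.0608 to 0.0868). It did not pass either with library size as the only scaling (adjusted p = 0.265), with no filter on low counts (0.18) or with all 18 libraries in a single fit (0.101).

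With ATPgs, several alpha chains followed the split among the WTATPgs libraries that the mast cell and basophil markers showed. Itga2b (chr11:102453297-102470122), the alpha chain of the platelet fibrinogen receptor, which mast cell and megakaryocyte precursors also express, was at 26.9, 29.1 and 26.5 CPM in WT and 47.3, 46.3 and 13.7 CPM in WTATPgs. Its treated values lay on both sides of the controls (log2 fold change 0.38 ± 0.51, adjusted p = 0.616). Itga4 was at 66.5, 63.8 and 66.5 CPM in WT and 98.2, 93.8 and 60.1 CPM in WTATPgs, split in the same way (log2 fold change 0.36 ± 0.19, adjusted p = 0.212). The collagen receptor chain Itga1 (chr13:114953096-115101964) was at 20.6, 21.3 and 21.5 CPM in WT and 38.1, 37.5 and 25.3 CPM in WTATPgs, where WTATPgs-3 was nearest the controls (log2 fold change 0.67 ± 0.16, adjusted p = 0.0144). The Itga1 call was lost without any one WT library (adjusted p 0.0521 to 0.0596), and Gm49395 overlaps 3.7% of its exons on the same strand. Without WTATPgs-3, Itga2b was higher by 0.76 (adjusted p = 5.09e-17), Itga4 by 0.54 (adjusted p = 4.7e-18) and Itgav by 0.13 (adjusted p = 1.98e-07). The part of cells with mast cell, basophil or myeloid transcripts in the set 1 values was not tested. Of the 4 mast cell and basophil markers 0 passed in set 1. Their median log2 fold change was 0.35, with WTATPgs libraries on both sides of WT. Of the 12 myeloid markers 5 rose (41.7%, against 17.7% of all genes). Without WTATPgs-3, 23 of the 54 genes rose and 13 fell. Of all 15568 genes tested in that fit 4186 rose and 4195 fell, against 2678 and 2934 of 15124 with WTATPgs-3 kept. Without any one WT library 10 or 11 of the 54 rose and 9 or 10 fell, and of all genes 1778 to 1892 rose and 2107 to 2187 fell.

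**Figure D4:**
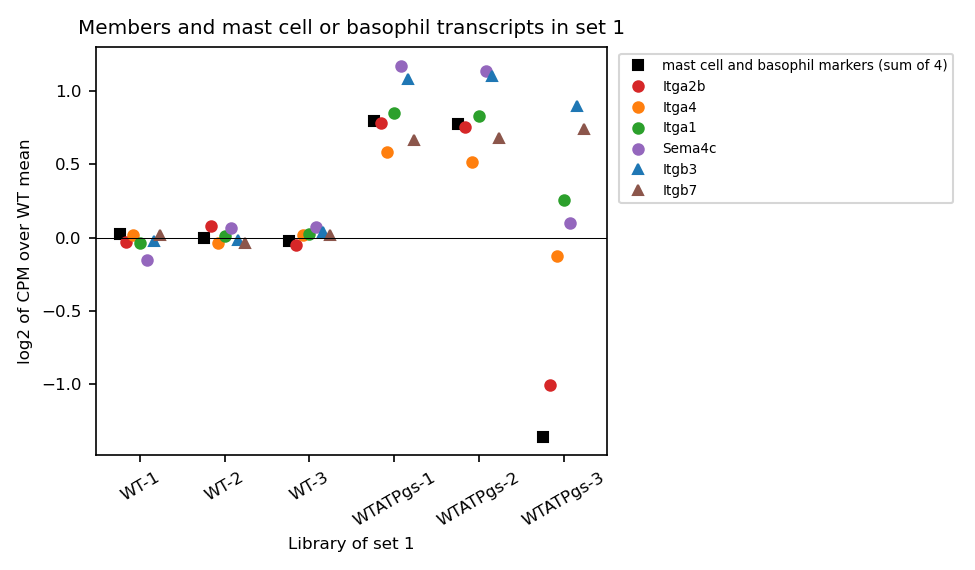
Log2 of CPM over the WT mean in each library of set 1 for 6 genes and for the sum of 4 mast cell and basophil markers (squares). Itga2b, Itga4 and Sema4c followed the marker sum in that WTATPgs-3 lay far below WTATPgs-1 and WTATPgs-2, whereas Itgb3 and Itgb7 were up in all 3.

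In set 2, where that marker sum was at most 4.52 CPM, Itga2b was at 2.43, 2.88 and 2.28 CPM in DNT and 5.19, 6.19 and 5.73 CPM in ADO (log2 fold change 1.17 ± 0.16, adjusted p = 9.56e-09). Itga1 was at 26.0, 29.3 and 25.8 CPM in DNT and 27.2, 26.3 and 26.8 CPM in ADO there and did not pass (log2 fold change −0.01 ± 0.06, adjusted p = 0.882). Under the inhibitor Itga1 was at 37.3, 31.0 and 29.7 CPM in R and 23.8, 23.9 and 24.8 CPM in RA (log2 fold change −0.43 ± 0.16, adjusted p = 0.282), which passed without R-3 (−0.5, adjusted p = 0.0239) and with all 18 libraries in a single fit (−0.41, adjusted p = 0.039). Itga2b was at 0.251, 0.649 and 0.0591 CPM in R and 0.609, 0.437 and 0.818 CPM in RA in set 3, too low for its fold to be read. Itgax (chr7:128129547-128150657), the CD11c chain, moved in opposite directions in the first 2 sets. It was at 12.9, 14.5 and 15.6 CPM in WT and 10.4, 11 and 8.58 CPM in WTATPgs (log2 fold change −0.52 ± 0.12, adjusted p = 0.0093) but at 11.8, 10.9 and 10.4 CPM in DNT and 15.5, 15.2 and 15.5 CPM in ADO (log2 fold change 0.48 ± 0.09, adjusted p = 5.30e-06). The difference of the ATPgs effect minus the adenosine effect was −1.0 ± 0.14 (adjusted p = 0.000126). ATPgs was given in set 1 only and adenosine in set 2 only, and their untreated groups differed, with a mast cell and basophil sum of 427 to 441 CPM in WT and 3.75 to 4.27 CPM in DNT. In this and every other difference between ATPgs and adenosine, set and ligand cannot be told apart. In set 3 Itgax was at 4.47, 4.62 and 4.90 CPM in R and 7.96, 8.04 and 7.58 CPM in RA, all RA libraries above all R libraries, without passing the test (log2 fold change 0.75 ± 0.17, adjusted p = 0.0786). It passed there with DESeq2 (0.76, adjusted p = 0.00642), with all 18 libraries in a single fit (0.78, adjusted p = 0.000375) and without R-3 (0.79, adjusted p = 0.0099). Of the remaining expressed alpha chains, Itga2 rose with both ligands, Itga3 (log2 fold change 0.60 ± 0.06, adjusted p = 6.94e-13) and Itga6 (log2 fold change 0.39 ± 0.07, adjusted p = 1.09e-05) rose with adenosine, and Itgae passed in no set. Itga2 was at 19.2, 19.9 and 13.1 CPM in WTATPgs against a WT mean of 11.9 CPM (log2 fold change 0.54 ± 0.15, adjusted p = 0.0244). There WTATPgs-3 lay nearest the controls, and the Itga2 call is not given here with a library left out. Its rise with adenosine was 0.39 ± 0.08 (adjusted p = 6.3e-05). The ATPgs effect minus the adenosine effect was −0.44 ± 0.09 for Itga3 (adjusted p = 0.00209) and −0.62 ± 0.14 for Itga6 (adjusted p = 0.00502).

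Of the 6 named genes, 3 rose (50%, against 17.7% of all genes) and 1 fell (16.7%, against 19.4%) with ATPgs. With adenosine 4 rose (66.7%, against 25.5%) and 2 fell (33.3%, against 24.6%). Selplg (chr5:113818536-113832644), the selectin ligand PSGL-1, was at 118, 114 and 117 CPM in WT and 188, 193 and 237 CPM in WTATPgs (log2 fold change 0.83 ± 0.09, adjusted p = 0.000382). With adenosine it was at 187, 189 and 191 CPM in DNT and 266, 294 and 265 CPM in ADO (log2 fold change 0.54 ± 0.03, adjusted p = 6.66e-13). In both sets every treated library lay above every control. With the inhibitor present it was at 227, 248 and 161 CPM in R and 184, 176 and 163 CPM in RA, where R-1 and R-2 lay above the RA values and R-3 just under them (log2 fold change −0.28 ± 0.19, adjusted p = 0.643). Without R-3 Selplg fell there (−0.45, adjusted p = 0.0209). The difference of the adenosine effect with minus without inhibitor was −0.83 ± 0.17 (adjusted p = 0.0167). This difference did not pass without any one of the DNT libraries, without ADO-2, RA-2 or RA-3 (adjusted p 0.0502 to 0.0647), or with library size as the only scaling (0.202).

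Cd44 (chr2:102811141-102901665) was at 1040.1, 1056 and 1054 CPM in WT and 772, 746 and 692 CPM in WTATPgs, a fall without overlap (log2 fold change −0.51 ± 0.04, adjusted p = 5.49e-05). In set 2 its values were 654, 676 and 691 CPM in DNT and 455, 429 and 451 CPM in ADO, also without overlap (log2 fold change −0.60 ± 0.02, adjusted p = 3.07e-25). In set 3 it was at 396, 442 and 373 CPM in R and 387, 379 and 399 CPM in RA (log2 fold change −0.06 ± 0.16, adjusted p = 0.946), with overlapping groups. The adenosine effect with minus without the inhibitor was 0.53 ± 0.13 (adjusted p = 0.0417). It did not pass without any one library other than R-2 or R-3 (adjusted p 0.0544 to 0.143), with library size as the only scaling (0.165) or with no filter on low counts (0.127).

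Cd47 (chr16:49800533-49915010), the integrin-associated protein that Sirpa and thrombospondin bind, rose in sets 1 and 2. It was at 308, 307 and 310.4 CPM in WT and 382, 378 and 386 CPM in WTATPgs (log2 fold change 0.31 ± 0.03, adjusted p = 0.000148). With adenosine it was at 324, 328 and 330.1 CPM in DNT and 388, 378 and 385 CPM in ADO (log2 fold change 0.23 ± 0.02, adjusted p = 6.19e-13), and in set 3 it was at 466, 384 and 490.4 CPM in R and 428, 432 and 414 CPM in RA (log2 fold change −0.07 ± 0.17, adjusted p = 0.931). Cd96 (chr16:46035657-46120251), a receptor for Pvr on T and NK cells, was at 83.9, 78.5 and 72.0 CPM in WT and 92.8, 87.6 and 87.1 CPM in WTATPgs (log2 fold change 0.19 ± 0.06, adjusted p = 0.0364). That small rise was lost without WT-2, WT-3, WTATPgs-1 or WTATPgs-2 (adjusted p 0.0531 to 0.141). With adenosine Cd96 was at 124, 124 and 119 CPM in DNT and 158, 163 and 164 CPM in ADO, without overlap (log2 fold change 0.40 ± 0.03, adjusted p = 9.98e-17). In set 3 its values were 122, 99.8 and 166 CPM in R and 151, 146 and 137 CPM in RA (log2 fold change 0.16 ± 0.20, adjusted p = 0.838).

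Icam2 (chr11:106377656-106388075), a ligand of LFA-1, was at 15.6, 13.8 and 15.1 CPM in WT and 13.6, 13.1 and 12.6 CPM in WTATPgs and did not pass (log2 fold change −0.18 ± 0.08, adjusted p = 0.13). With adenosine Icam2 rose, with 10.4, 9.51 and 11.2 CPM in DNT and 12.9, 13.1 and 14.0 CPM in ADO (log2 fold change 0.36 ± 0.09, adjusted p = 0.000863). The effects in sets 1 and 2 on Icam2 differed by −0.53 ± 0.12 (adjusted p = 0.006). Its set 3 values were 7.02, 6.82 and 7.56 CPM in R and 8.62, 9.96 and 7.36 CPM in RA (log2 fold change 0.28 ± 0.18, adjusted p = 0.632). Nrp1 (chr8:128358604-128503363), the semaphorin 3 and VEGF coreceptor, was at 64.5, 67.3 and 66.7 CPM in WT and 46.2, 46.4 and 26.7 CPM in WTATPgs, with every treated library below every control and WTATPgs-3 lowest (log2 fold change −0.73 ± 0.22, adjusted p = 0.0524). That difference missed the threshold in the fit used and passed with RLE factors (−0.73, adjusted p = 0.0486), a filter of at least 1 CPM in 3 libraries (−0.72, adjusted p = 0.0475), DESeq2 (−0.73, adjusted p = 4.95e-05), limma-voom (−0.79, adjusted p = 0.0154), all 18 libraries in a single fit (−0.75, adjusted p = 0.0113) or without WTATPgs-3 (−0.52, adjusted p = 7.26e-15). In set 2 Nrp1 was at 11.7, 11.7 and 11.7 CPM in DNT and 5.05, 5.53 and 5.69 CPM in ADO, a fall without overlap (log2 fold change −1.11 ± 0.11, adjusted p = 9.98e-13). Under the inhibitor it was at 6.52, 6.90 and 3.19 CPM in R and 3.28, 1.84 and 2.67 CPM in RA (log2 fold change −1.10 ± 0.33, adjusted p = 0.171), which passed with DESeq2 (−1.09, adjusted p = 0.0472), with no filter on low counts (−1.09, adjusted p = 0.00279), with all 18 libraries in a single fit (−1.08, adjusted p = 0.00974) and without R-3 (−1.38, adjusted p = 0.00183).

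Of the most abundant semaphorins, Sema7a, Sema4d and Sema4b fell with both ligands. With ATPgs 6 of 15 tested semaphorins rose (40.0%, against 17.7% of all genes) and 4 fell (26.7%, against 19.4%). With adenosine 2 of 13 rose (15.4%, against 25.5%) and 7 fell (53.8%, against 24.6%). Sema7a (chr9:57940112-57962865) was at 689.5, 673 and 688 CPM in WT and 336, 339.7 and 321 CPM in WTATPgs, a fall without overlap (log2 fold change −1.04 ± 0.04, adjusted p = 6.14e-07). Its set 2 values were 398, 389.8 and 392 CPM in DNT and 269, 272 and 269 CPM in ADO (log2 fold change −0.54 ± 0.02, adjusted p = 1.03e-26). The fall with ATPgs was the larger, by 0.49 ± 0.04 on the log2 scale (adjusted p = 3.58e-07). Under the inhibitor Sema7a was at 162, 239.9 and 178 CPM in R and 164, 152 and 187 CPM in RA (log2 fold change −0.20 ± 0.19, adjusted p = 0.775). The window printed for it holds a single TGACG, at base 41 after the start.

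Sema4b (chr7:80186841-80226527) was at 102, 106 and 110.5 CPM in WT and 76.1, 76.1 and 81.8 CPM in WTATPgs (log2 fold change −0.45 ± 0.05, adjusted p = 0.000247). With adenosine it was at 119, 113 and 118 CPM in DNT and 68.5, 73.9 and 70.2 CPM in ADO (log2 fold change −0.72 ± 0.04, adjusted p = 5.29e-23). Both groups of treated libraries lay below their controls. In set 3 the order turned, with 17.0, 24.7 and 17.3 CPM in R and 26.5, 24.9 and 28.0 CPM in RA (log2 fold change 0.43 ± 0.19, adjusted p = 0.401), which passed with all 18 libraries in a single fit (0.45, adjusted p = 0.0113), and the adenosine effect with minus without inhibitor was 1.13 ± 0.18 (adjusted p = 0.00356). Sema4d (chr13:51685529-51793747), CD100, which binds plexin B receptors and CD72, was at 452, 457 and 471 CPM in WT and 399.9, 387 and 438 CPM in WTATPgs (log2 fold change −0.17 ± 0.05, adjusted p = 0.0229). The Sema4d call with ATPgs was lost without any library of set 1 other than WTATPgs-3 (adjusted p 0.0635 to 0.148) and with library size as the only scaling (0.0691). With adenosine Sema4d was at 498, 485 and 502 CPM in DNT and 419, 421 and 419.6 CPM in ADO, without overlap (log2 fold change −0.24 ± 0.02, adjusted p = 2.95e-14). In set 3 it was at 232, 388 and 235 CPM in R and 207, 204 and 229 CPM in RA (log2 fold change −0.42 ± 0.22, adjusted p = 0.499).

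For Sema6d and Sema4a the ATPgs effect in set 1 differed from the adenosine effect in set 2. Sema6d (chr2:124089969-124667770), a membrane-bound class 6 semaphorin, was at 166, 168 and 171 CPM in WT and 177, 176 and 153 CPM in WTATPgs, with overlapping groups (log2 fold change 0.00 ± 0.06, adjusted p = 0.997). In set 2 its values were 207, 211 and 219 CPM in DNT and 103, 104 and 111 CPM in ADO, a fall without overlap (log2 fold change −1.0 ± 0.03, adjusted p = 5.75e-32). That difference was 1.0 ± 0.06 (adjusted p = 4.82e-08). Under the inhibitor it was at 101, 137 and 66.5 CPM in R and 58.6, 57.4 and 63.6 CPM in RA, with all RA libraries lowest (log2 fold change −0.76 ± 0.24, adjusted p = 0.209), and this passed without R-3 (−0.99, adjusted p = 0.000581), with no filter on low counts (−0.75, adjusted p = 0.0182) and with all 18 libraries in a single fit (−0.73, adjusted p = 0.00379).

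Sema4a (chr3:88435959-88461182), which acts as a costimulator of T cells, was at 15.6, 15.9 and 16.9 CPM in WT and 23.5, 23.2 and 21.8 CPM in WTATPgs and rose (log2 fold change 0.50 ± 0.07, adjusted p = 0.0008). With adenosine it was at 58.5, 58.7 and 58.3 CPM in DNT and 40.0, 42.3 and 38.0 CPM in ADO and fell (log2 fold change −0.54 ± 0.05, adjusted p = 2.97e-14). The effects differed by 1.05 ± 0.08 (adjusted p = 2.71e-07). In set 3 it was at 35.9, 52.3 and 38.8 CPM in R and 40.2, 39.9 and 41.4 CPM in RA (log2 fold change −0.07 ± 0.18, adjusted p = 0.943). Sema6a, a class 6 semaphorin with group means under 5 CPM, also had opposite calls, and was named after its values were seen. Sema6a rose by 1.04 ± 0.22 with ATPgs (adjusted p = 0.00683) and fell by 1.02 ± 0.17 with adenosine (adjusted p = 1.62e-06), and the difference was 2.06 ± 0.27 (adjusted p = 8.72e-05). Under the inhibitor its mean was 3.14 CPM in R and 0.769 CPM in RA, all RA libraries below all R libraries. Sema6a just missed the threshold there (log2 fold change −2.04 ± 0.41, adjusted p = 0.0549).

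Sema4c (chr1:36548639-36558349), a ligand of Plxnb2, was the only gene of the 42 to pass under the inhibitor in the edgeR fit used. It was at 5.22, 7.30 and 5.85 CPM in R and 2.58, 1.92 and 2.71 CPM in RA, all RA libraries below all R libraries (log2 fold change −1.35 ± 0.23, adjusted p = 0.0236). The call was lost without R-1 or any RA library (adjusted p 0.0828 to 0.172) and with library size as the only scaling (−1.24, adjusted p = 0.117). In set 2 Sema4c was at 5.03, 5.84 and 5.36 CPM in DNT and 5.14, 5.62 and 4.14 CPM in ADO and did not pass (log2 fold change −0.12 ± 0.14, adjusted p = 0.498). The adenosine effect with minus without inhibitor was −1.25 ± 0.26 (adjusted p = 0.0178), and it did not pass without DNT-1, DNT-3, ADO-1, ADO-2 or RA-2 (adjusted p 0.0535 to 0.0633), or with library size as the only scaling (0.0791). With ATPgs Sema4c was at 4.38, 5.11 and 5.13 CPM in WT and 11, 10.7 and 5.21 CPM in WTATPgs, where WTATPgs-3 lay beside the controls (log2 fold change 0.88 ± 0.28, adjusted p = 0.0466). That call held with WTATPgs-3 left out and was lost when any other library of set 1 was (adjusted p 0.11 to 0.145), or with limma-voom (0.1). D430040D24Rik overlaps 7.3% of the exons of Sema4c on the other strand. Sema4f (chr6:82911885-82939769) was low and rose in sets 1 and 2, at 7.29, 7.41 and 6.90 CPM in WT and 11.1, 11 and 10.1 CPM in WTATPgs (log2 fold change 0.58 ± 0.10, adjusted p = 0.00205). In set 2 it was at 3.20, 3.99 and 4.11 CPM in DNT and 7.23, 6.76 and 7.27 CPM in ADO (log2 fold change 0.91 ± 0.14, adjusted p = 1.46e-07). Under the inhibitor it was at 1.30, 2.23 and 1.42 CPM in R and 3.04, 2.32 and 2.93 CPM in RA (log2 fold change 0.72 ± 0.28, adjusted p = 0.307), which passed with all 18 libraries in a single fit (0.75, adjusted p = 0.0131).

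Of the plexins, 1 of 6 tested fell with ATPgs (16.7%, against 19.4% of all genes). With adenosine 1 of 6 rose (16.7%, against 25.5%) and 2 fell (33.3%, against 24.6%). Plxnd1 (chr6:115954811-115995005), the most abundant and a receptor of Sema3e, was at 123, 120.1 and 126 CPM in WT and 100.2, 94.5 and 136 CPM in WTATPgs, with overlapping groups (log2 fold change −0.16 ± 0.14, adjusted p = 0.417). It fell without WTATPgs-3 (−0.34, adjusted p = 6.49e-12). Plxnd1 fell with adenosine, with 179, 172 and 171 CPM in DNT and 104, 108 and 105 CPM in ADO (log2 fold change −0.72 ± 0.03, adjusted p = 4.67e-26). Under the inhibitor it was at 167, 265 and 213 CPM in R and 143, 132 and 144 CPM in RA (log2 fold change −0.62 ± 0.19, adjusted p = 0.196), and there it passed without R-3 (−0.63, adjusted p = 0.0251) and with all 18 libraries in a single fit (−0.6, adjusted p = 0.00939). Plxnb2 (chr15:89155549-89180788), a receptor of class 4 semaphorins, was low, at 4.43, 4.42 and 4.82 CPM in WT and 1.56, 1.35 and 1.59 CPM in WTATPgs, and its fall with ATPgs was the steepest of the 35 expressed genes (log2 fold change −1.60 ± 0.16, adjusted p = 0.000162). Its set 2 values were 8.57, 8.07 and 8.17 CPM in DNT and 6.39, 7.24 and 5.33 CPM in ADO (log2 fold change −0.39 ± 0.12, adjusted p = 0.00476), a call lost without ADO-3 (−0.28, adjusted p = 0.0657). The fall with ATPgs exceeded that with adenosine by 1.21 ± 0.20 (adjusted p = 0.000642). In set 3 Plxnb2 was at 1.76, 2.88 and 1.65 CPM in R and 1.78, 2.1 and 1.98 CPM in RA (log2 fold change −0.12 ± 0.28, adjusted p = 0.931). Plxnc1, a receptor of Sema7a and named after its values were seen, rose with adenosine (0.68 ± 0.11, adjusted p = 4.34e-07) but had −0.07 ± 0.13 with ATPgs (adjusted p = 0.734), and the difference passed (adjusted p = 0.0039).

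The 2 ligand comparisons share no library. Of the 49 genes tested in both, 22 passed in both (44.9%), against 27.1% of the 14053 genes tested in both overall. Of those 22, 9 rose in both (Cd47, Cd96, Itga2, Itgb3, Itgb5, Itgb7, Itgb8, Selplg and Sema4f), 10 fell in both (Cd44, Itga5, Itgal, Itgb1, Itgb2, Plxnb2, Sema3f, Sema4b, Sema4d and Sema7a) and 3 went opposite ways (Itgax, Sema4a and Sema6a). The share with the same direction was 86.4%, against 92.6% of all genes that passed in both. Itga1, Itga7, Itgb2l, Sema3a, Sema4c and Sema6b passed with ATPgs and not with adenosine, where Itgb2l and Sema3a were not tested. Icam2, Itga2b, Itga3, Itga4, Itga6, Itgav, Itgb3bp, Plxnc1 and Sema6c rose and Nrp1, Plxnd1 and Sema6d fell with adenosine and did not pass with ATPgs. Itga8, Itgad, Itgb6, Itgbl1, Plxna2, Plxna4, Plxnb3, Sema3b, Sema3c, Sema3g, Sema5a and Sema5b had too few counts to be tested in either. The remaining members were tested in at least 1 of the comparisons and passed in neither. The difference between the ligand effects passed for 15 of 54 genes, 7 higher and 8 lower (27.8%, against 17.3% of all genes, 8.13% higher and 9.12% lower). Without WTATPgs-3 it was 14 higher and 10 lower, and over all 16248 genes tested 2309 and 3058, against 1284 and 1440 of 15788 with WTATPgs-3 kept. With all 18 libraries in a single fit, whose dispersions include those of R, it was 3 higher and 2 lower (157 and 145 of all 16073 genes tested). The differences given for Icam2, Itga3, Itga6, Plxnc1 and Sema7a did not pass in that fit (adjusted p 0.0981 to 0.34). In that fit the changes of Itgb1, Itgb2, Cd96 and Sema4d with ATPgs (adjusted p 0.0777 to 0.417) and of Cd47, Cd96, Itga6, Itgal, Itgav, Itgb1, Itgb2, Plxnb2 and Sema4d with adenosine (adjusted p 0.0567 to 0.629) did not pass.

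Under the A2aR inhibitor the adenosine effect differed from that without it for 7 of 50 genes (14.0%, against 4.05% of all genes, 0.909% higher and 3.14% lower). It was higher for Cd44 and Sema4b and lower for 5, of which Itgb7, Selplg, Sema4c and Itga4 have been given and Itga7 was under 5 CPM. Itgb3 was not among them, at −0.54 ± 0.21 (adjusted p = 0.197), and passed without R-3 (−0.61, adjusted p = 0.0242). The counts ranged over 1 to 5 higher and 1 to 11 lower when 1 library was left out. Those of all genes ranged over 44 to 1633 higher and 230 to 1418 lower, against 136 and 470 in the fit used. Sets 2 and 3 differed in more than the inhibitor as measured (ribosomal protein share, spread of R), so set and inhibitor cannot be told apart in this difference. In RA against R alone, leaving out R-3 gave 1 higher and 11 lower. Of all 13181 genes tested in that fit 725 were higher and 994 lower, against 37 and 110 of 12873 with R-3 kept.

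The genes that work with these receptors were taken as 6 lists of 135 genes. Over all 6 lists, 37 of 121 tested genes rose with ATPgs (30.6%, against 17.7% of all genes) and 23 fell (19.0%, close to the 19.4% of all genes). With adenosine 33 of 114 rose and 33 fell (28.9% each), close to the 25.5% and 24.6% of all genes. The same shares of all genes are the background of each list's counts. For integrin activation and signalling, 13 of 40 tested genes rose and 8 fell with ATPgs, and 13 of 38 rose and 11 fell with adenosine, with medians of 0.1 and 0.0. With ATPgs, Fyn, a Src family kinase, fell from 391 to 253 CPM (−0.63 ± 0.03, adjusted p = 6.41e-06), the Rap1 exchange factor Rapgef1 fell from 352 to 257 CPM (−0.46 ± 0.03, adjusted p = 2.86e-05), and parvin gamma, Parvg, fell from 254 to 189 CPM (−0.43 ± 0.04, adjusted p = 8.70e-05). With adenosine, Cytip, which releases the integrin regulator cytohesin from the membrane, rose from 87.3 to 148 CPM (0.76 ± 0.03, adjusted p = 9.51e-26). The adaptor Fyb rose from 86.0 to 119.6 CPM (0.47 ± 0.03, adjusted p = 5.74e-17), and Dock2, a Rac exchange factor, fell from 386 to 313 CPM (−0.31 ± 0.02, adjusted p = 1.80e-16).

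Of the integrin ligands, 3 of 10 tested rose and 2 fell with ATPgs, and 2 of 9 rose and 5 fell with adenosine. The secreted alpha v ligand osteopontin, Spp1, was abundant and fell from 2077 to 1405 CPM (−0.56 ± 0.08, adjusted p = 0.00145) with ATPgs. It fell from 1798 to 929.9 CPM (−0.95 ± 0.02, adjusted p = 1.54e-42) with adenosine. Icam1, the main LFA-1 ligand, rose from 177 to 223 CPM (0.33 ± 0.05, adjusted p = 0.000712) with ATPgs and fell from 212 to 183 CPM (−0.21 ± 0.03, adjusted p = 5.11e-10) with adenosine. Jam2 fell from 6.62 to 4.32 CPM (−0.62 ± 0.16, adjusted p = 0.0157) with ATPgs. E-cadherin, Cdh1, which Itgae with Itgb7 binds, fell from 36.4 to 14.5 CPM (−1.33 ± 0.07, adjusted p = 3.63e-23) with adenosine. Under the inhibitor it fell from 35.2 to 9.62 CPM (−1.88 ± 0.28, adjusted p = 0.0124). The R libraries spread widely there, at 32.6, 50.4 and 22.7 CPM, against 11.3, 8.26 and 9.3 CPM in RA.

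Among selectins, the enzymes that decorate selectin ligands and the linkers of Cd44, 7 of 21 tested rose and 7 fell with ATPgs, and 5 of 21 rose and 7 fell with adenosine. Ezrin, Ezr, which ties Cd44 to actin, rose from 334 to 541 CPM (0.69 ± 0.04, adjusted p = 1.18e-05) with ATPgs and from 401 to 544 CPM (0.44 ± 0.02, adjusted p = 6.10e-24) with adenosine. The galactosyltransferase B4galt1 rose from 89.7 to 131 CPM (0.54 ± 0.04, adjusted p = 1.93e-05) with ATPgs, and the tyrosine sulphotransferase Tpst1 fell from 15.4 to 8.60 CPM (−0.84 ± 0.10, adjusted p = 0.000428). Adam10, a protease that sheds Cd44, fell from 149.6 to 128 CPM (−0.22 ± 0.03, adjusted p = 1.80e-07) with adenosine.

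Of the semaphorin coreceptors and plexin effectors, 7 of 25 tested rose and 2 fell with ATPgs, and 5 of 23 rose and 6 fell with adenosine. Mst1r, a receptor kinase that associates with B plexins, fell from 47.9 to 17.6 CPM (−1.45 ± 0.18, adjusted p = 0.00158) with ATPgs and from 5.05 to 1.81 CPM (−1.48 ± 0.18, adjusted p = 6.27e-10) with adenosine. Limk1, a kinase of the actin regulator cofilin, fell from 61.1 to 42.5 CPM (−0.52 ± 0.05, adjusted p = 0.000169) with ATPgs and from 91.6 to 76.4 CPM (−0.26 ± 0.04, adjusted p = 2.81e-08) with adenosine. Rac1 rose from 172 to 209.7 CPM (0.28 ± 0.04, adjusted p = 0.000605) with ATPgs and Rras2 fell from 79.5 to 61.2 CPM (−0.38 ± 0.04, adjusted p = 9.78e-11) with adenosine.

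The list around Cd47 and Cd96 held their partners and also other receptors, such as Crtam and Pvrig. Of its genes, 4 of 9 tested rose and 1 fell with ATPgs, and 2 of 7 rose and 1 fell with adenosine. Crtam, an adhesion receptor of activated T cells, fell from 1086 to 335 CPM (−1.70 ± 0.10, adjusted p = 9.13e-05) with ATPgs and from 832 to 454 CPM (−0.87 ± 0.02, adjusted p = 4.25e-38) with adenosine. Tigit, which shares the ligand Pvr with Cd96, rose from 148 to 241 CPM (0.70 ± 0.03, adjusted p = 2.70e-27) with adenosine. Under the inhibitor it rose from 73.6 to 128 CPM (0.79 ± 0.15, adjusted p = 0.0432). Its libraries there were at 71.3, 81.7 and 67.9 CPM in R and 126, 124 and 134 CPM in RA. Pvr itself rose from 29.7 to 43.0 CPM (0.53 ± 0.05, adjusted p = 0.000127) with ATPgs. Sirpa, the Cd47 receptor of myeloid cells, rose from 2.38 to 9.20 CPM (1.95 ± 0.52, adjusted p = 0.0336) with ATPgs, in libraries where the myeloid marker sum also moved. It was at 2.26, 2.44 and 2.43 CPM in WT and 11.8, 12.4 and 3.34 CPM in WTATPgs, where WTATPgs-3 lay nearest the controls. Pvrig rose from 4.25 to 8.02 CPM (0.92 ± 0.13, adjusted p = 3.22e-08) with adenosine.

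Of the other adhesion receptors, 3 of 16 tested rose and 3 fell with ATPgs, and 6 of 16 rose and 3 fell with adenosine. Alcam fell from 257 to 165 CPM (−0.64 ± 0.04, adjusted p = 1.49e-05) with ATPgs and from 195 to 147 CPM (−0.41 ± 0.03, adjusted p = 7.96e-18) with adenosine, and its ligand on T cells, Cd6, fell from 90.9 to 39.9 CPM (−1.19 ± 0.15, adjusted p = 0.00166) with ATPgs. L1cam rose from 6.37 to 17.3 CPM (1.44 ± 0.10, adjusted p = 1.63e-05) with ATPgs. Cd2 rose from 88.9 to 137 CPM (0.63 ± 0.03, adjusted p = 1.08e-22) with adenosine, where the tetraspanin Cd82 fell from 739 to 621 CPM (−0.25 ± 0.02, adjusted p = 9.67e-17). Cd9, a tetraspanin that associates with integrins, fell from 57.3 to 27.6 CPM (−1.05 ± 0.15, adjusted p = 0.00856) under the inhibitor. Under the inhibitor 1 of the 107 tested genes of the lists rose (Tigit, 0.935%, against 0.287% of all genes). There 3 fell (Cdh1, Cd9 and the low Madcam1, 2.8%, against 0.855% of all genes), and Madcam1 was named after its values were seen. These calls are not given here with a library left out. Without R-1 or any one RA library, 5 to 9 of all genes rose in that comparison, against 37 with all kept.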

How the data were processed

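The deposited tables hold counts per Ensembl gene, 1 table per set of 6 libraries. Per the submitters' processing notes, the authors used HISAT2 2.1.0 and the build GRCm38. Not given in the sources used here are the counter, its annotation and its use of strand. Per the labels' protocols, total RNA was extracted with Trizol and standard Illumina libraries were made. Symbols, positions and exon lengths came from GENCODE M21, which held 99.7% to 99.8% of the IDs, and 3 non-coding genes with the prefixes were left out. No column was left unused.

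Each ligand was compared within its own set, on 6 libraries, by the two-sided quasi-likelihood test of edgeR 4.0.16 (R 4.3.3), with TMM scaling, the filterByExpr filter and robust dispersions. P-values were adjusted by Benjamini-Hochberg across every gene tested, and the threshold was 0.05. Differences between effects were contrasts over 12 libraries, with 1 dispersion per gene for both sets although their spreads differed. Errors after log2 fold changes are SE, with n = 3 libraries per group, and the SE is the log2 fold change divided by the square root of F. Genes that the filter on low counts removed were not tested: 54, 49 and 42 of the 66 were tested in sets 1, 2 and 3. A filter by group keeps a gene that is high in 1 group only, so counts over the tested genes do not stand for all 66. Alternatives were RLE factors, library size only, no filter, at least 1 CPM in at least 3 libraries, DESeq2 1.42.0, limma-voom (limma 3.58.1), all 18 libraries in a single fit, a replicate block and leaving out each library.

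The genes and lists were chosen with earlier results of these data known. The rule for values in every library took the 6 named genes, the 8 highest per kb in WT and DNT, the 8 largest changes per treatment among those that passed with at least 5 CPM, and the 5 smallest p per difference test. Of each list of other genes the rule took the 3 with the smallest p and at least 5 CPM per comparison. Of those under the inhibitor only genes that passed, there or with a ligand alone, are named, and a gene of these lists is not reported here.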

Additional observations from a re-analysis of the deposited data

Results flagged for a closer look

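The adenosine effect under the A2aR inhibitor (RA against R) differed from the effect without it (ADO against DNT) for 6 genes with per-library values in the report, by edgeR's contrast over 12 libraries. On the log2 scale the effect with minus without the inhibitor was −1.15 for Itgb7 (adjusted p = 0.000203), −0.83 for Selplg (0.0167), −1.25 for Sema4c (0.0178), −0.56 for Itga4 (0.0248), 1.13 for Sema4b (0.00356) and 0.53 for Cd44 (0.0417). For Itgb7, Selplg and Itga4 adenosine alone had raised the gene, and for Sema4b and Cd44 it had lowered it. Of the adenosine comparisons, Sema4c passed in the one with the inhibitor and not in the other. Itgb7 and Sema4b passed in every alternative run, and the other 4 did not. The set and the inhibitor cannot be told apart.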

How the results depend on the processing

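Of the calls followed by gene, 14 of 21 with ATPgs, 20 of 29 with adenosine and 0 of 1 under the inhibitor passed in every alternative run. So did 2 of 6 in the difference by inhibitor and 5 of 15 in the difference between ligands, and no call reversed. Counts of the genes higher and lower moved by over 1.5 times in these cases. With all 18 libraries in a single fit, adenosine gave 12 higher (1439 of all genes). Adenosine under the inhibitor gave 4 higher and 8 lower there (885 and 893 of all genes). The difference between ligands gave 3 higher and 2 lower (157 and 145 of all genes). Under the inhibitor there were 0 lower with library size only (48 of all genes) and 5 lower with no filter (329). DESeq2 gave 1 higher and 4 lower there (181 and 352 of all genes). In the difference by inhibitor there was 1 higher and 1 lower with library size only (72 and 168 of all genes). With no filter there was 1 higher (155 of all genes). Replicate numbers did not pair the libraries: deviations of same-numbered libraries correlated at −0.02, 0 and −0.02 in set 1, 0.01, 0.02 and 0 in set 2, and 0.05, −0.2 and −0.13 in set 3. With a replicate block there were 2 lower under the inhibitor (105 of all genes). In the difference by inhibitor it gave 1 higher and 1 lower (19 and 141 of all genes). Adjusted p with the block was over the threshold for Selplg (0.0694), Cd44 (0.209), Sema4c (0.093) and Itga4 (0.15) in the difference by inhibitor, for Sema4c with ATPgs (0.0694), and for Cd96 (0.0511) and Sema4c (0.0649) in the difference between ligands. The cause of these shifts was not tested.

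Leaving out each library in turn gave 10 to 23 higher with ATPgs (1778 to 4186 of all genes). Under the inhibitor it gave 0 to 1 higher and 0 to 11 lower (5 to 725 and 31 to 994 of all genes). The difference by inhibitor had 1 to 5 higher and 1 to 11 lower (44 to 1633 and 230 to 1418 of all genes). The difference between ligands had 5 to 14 higher (913 to 2309 of all genes). The highest ATPgs count came without WTATPgs-3 and the highest count lower under the inhibitor without R-3.

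With library size only, 3226 genes rose and 2331 fell with ATPgs (2678 and 2934 with TMM), 4418 and 2850 with adenosine (3707 and 3574 with TMM), and the median log2 fold change of all genes under the inhibitor went from −0.04 to 0.09. With that scaling the sign turned for values that had not passed: under the inhibitor Cd44 0.06, Cd47 0.07, Itgb2 0.06, Itgb1 0.04 and Sema4a 0.04, with adenosine Itga1 0.03 and with ATPgs Sema6d 0.05. Sema6d with ATPgs was 0.01 with RLE factors, with the filter of 1 CPM and with DESeq2. Signs also turned among values that had not passed when 1 library was left out. Under the inhibitor the ranges were −0.11 to 0.00 for Cd44, −0.01 to 0.38 for Cd96, −0.18 to 0.15 for Itgb2, −0.22 to 0.01 for Itgb1, −0.00 to 0.59 for Itgav, −0.17 to 0.11 for Sema4a and −0.26 to 0.18 for Plxnb2. With adenosine the range was −0.04 to 0.05 for Itga1, and with ATPgs −0.02 to 0.06 for Sema6d and −0.15 to 0.03 for Plxnc1.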
